A study of Mus musculus with 20 samples.

Results

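Hyal2 overexpression was examined by comparing mouse cardiac fibroblasts that received an adenovirus carrying Hyal2 with fibroblasts of the same isolates that received a control adenovirus carrying GFP. The comparison used every library labelled Hyal2 and every library labelled GFP, 4 of each, which made 8 of the 20 libraries of the study. Libraries with the same replicate number were taken as a pair, and each number is called an isolate here; isolates 1 and 2 were labelled female and isolates 3 and 4 male. The cells were labelled as fibroblasts of the heart of wild type C57BL/6J mice, although the treatment protocol names Hyal2 fl/fl animals, whose Hyal2 gene Cre recombinase can delete. No Cre was given in these 2 groups. At passage 2 the cells were serum starved for 24 h and exposed to virus for 5 h. The treatment protocol then gives 48 h of stimulation, with growth factor at 20 ng/mL, before RNA was taken. The labels put no TGFB in either group, and their wording does not settle whether these cultures received bFGF. They also do not say from which species or isoform the Hyal2 sequence of the virus came, or whether an isolate was 1 heart or a pool.

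Hyaluronan is a long unsulphated sugar polymer of the extracellular matrix that fibroblasts spin out at the cell surface through the synthases Has1, Has2 and Has3. Hyal2 is a hyaluronidase held on the outer membrane by a GPI anchor, and it cuts long hyaluronan into shorter pieces that are taken up and degraded in lysosomes by Hyal1, Hexa and Gusb. Long and short hyaluronan act differently on cells through receptors such as Cd44, and in the heart fibroblasts are the main source of matrix during scarring.

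Library totals were 41871338 to 71016514 counts in the GFP group and 38916445 to 45833672 counts in the Hyal2 group. Fibroblast markers such as Col1a1 and Pdgfra were abundant in all 8 libraries, with a summed level of 55800 to 79600 CPM (the usual depth-scaled count unit, with library sizes scaled by TMM factors) in GFP and 59000 to 85400 CPM in Hyal2. The first principal component of the 8 libraries held 48.7% of the variance and parted the female from the male isolates, not the viruses.

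Hyal2 (ENSMUSG00000010047) stood far above control in every culture that received its virus. In the GFP cultures of isolates 1 to 4 it was at 44.5, 43.0, 40.6 and 36.5 CPM (mean 41.2 ± 3.46, SD, n = 4). In the Hyal2 cultures of the same isolates it was at 1211, 706, 399 and 1419 CPM (mean 934 ± 466, SD, n = 4). The groups did not overlap, and the level was high in isolates 1 and 4, lower in isolate 2 and lowest in isolate 3. The increase was thus uneven, at 27.2-fold, 16.4-fold, 9.81-fold and 38.8-fold in isolates 1 to 4. The counts behind these levels were 1561 to 3212 in GFP and 18568 to 62732 in Hyal2, and they do not tell transcripts of the virus from those of the cell's own gene.

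The fitted log2 fold change of Hyal2 was 4.46 (SE 0.32, 95% interval 3.78 to 5.15, edgeR adjusted p = 1.15e-05), in a fit of all 20 libraries that took out differences between isolates. With the 12 libraries without TGFB alone the adjusted p was 0.202 at a log2 fold change of 4.41, and with the 8 GFP and Hyal2 libraries alone it was 0.704 at 4.34, so the call rests on a spread estimated with the other groups. A two-sided exact permutation test of the log2 level, without regard to pairs, gave p = 0.0286 over the 70 ways to split 8 libraries. That is the smallest value this test can give, and groups that do not overlap always give it. With the pairs kept, 4 isolates cannot go below an exact p of 0.125, which was the value found.

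**Figure D1:**
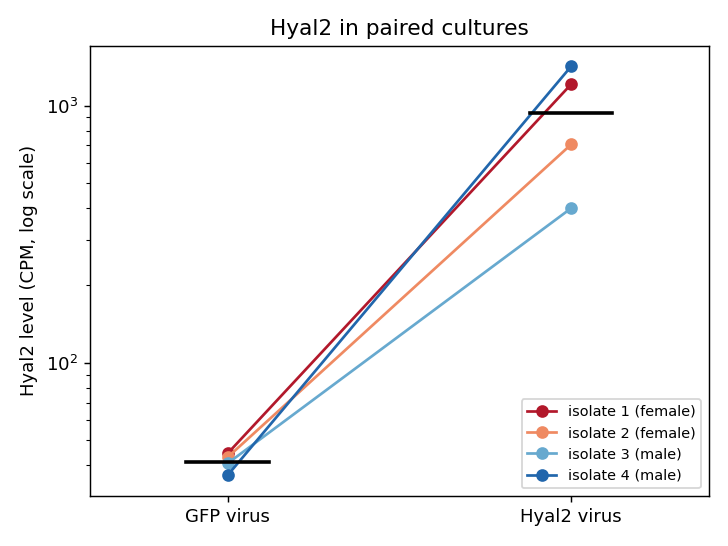
Hyal2 level in CPM on a log axis in the GFP and the Hyal2 culture of each isolate, joined by a line; the black bars are the group means. The 4 Hyal2 cultures sit between 399 and 1419 CPM and the 4 GFP cultures between 36.5 and 44.5 CPM.

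Beyond Hyal2 itself, no gene passed the test. Of 15624 genes tested, 1 was called at an adjusted p under 0.05, which is 0.0064% of them. Without adjustment, 344 genes were higher at p under 0.05 (2.2%) and 339 lower (2.17%). The median log2 fold change over all genes was -0.003, and 49.1% of genes lay above 0. The estimates were tight for genes of moderate level: of the 6982 genes between 10 and 100 CPM, 96.3% had a 95% interval that stayed within 0.5 of 0 on the log2 scale, and 99.9% within 1. Under 1 CPM the share within 1 was 55.2%, and the intervals of the remaining genes at that level reached a 2-fold change. These intervals are for single genes. A call required an adjusted p over all genes tested, which is stricter, so the shares do not say what change would have been called.

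**Figure D2:**
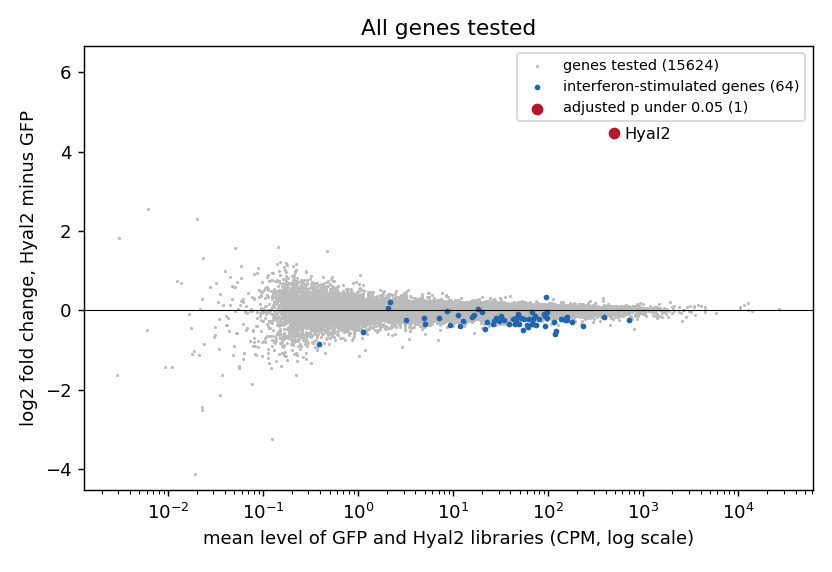
Log2 fold change of Hyal2 over GFP against the mean level in CPM (log axis) for each of the 15624 genes tested, with Hyal2, the 1 gene called, in red and the 64 interferon-stimulated genes in blue. Hyal2 stands alone at 4.46, and 60 of the 64 blue points lie below 0.

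The second smallest adjusted p belonged to Stmn4, a stathmin that binds tubulin, named here after its values were seen. It had 6, 23, 11 and 9 counts in the GFP libraries and 1, 0, 1 and 2 in the Hyal2 libraries of isolates 1 to 4. The groups did not overlap, at very low levels throughout (log2 fold change -3.24, SE 0.56, edgeR adjusted p = 0.135). Limma-voom called it (adjusted p = 0.0322), as did edgeR without a filter on low counts (0.023). Nefm, a neurofilament subunit also picked after the fact, was called by DESeq2 alone (adjusted p = 0.0462), with 4.69, 5.37, 2.39 and 2.44 CPM in GFP and 2.63, 3.61, 0.473 and 1.58 CPM in Hyal2 (log2 fold change -0.91, SE 0.22, edgeR adjusted p = 0.892). The Cre libraries had 3, 2, 1 and 4 counts of Stmn4, or 0.0238 to 0.0712 CPM, against 0 to 0.0452 CPM in the Hyal2 libraries and 0.133 to 0.308 CPM in the GFP libraries.

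Genes higher in all 4 isolates made up 7.89% of all genes tested, and genes lower in all 4 made up 6.99%. All Hyal2 libraries stood above all GFP libraries for 88 genes (0.563%) and below them for 107 genes (0.685%). Among genes of at least 5 CPM with the smallest p, the 10 higher in every pair were Tubb4a (a tubulin), Lama5 (a laminin chain), Traf3ip1, Pitpnm2, Amotl2 (an angiomotin of the Hippo pathway), Ogdhl, Gas2l1, Rgs3, Lmcd1 and Zgpat, with log2 fold changes from 0.20 for Amotl2 to 0.40 for Lama5. The 10 lower in every pair were Erap1, Ctss, B2m, Rnaseh2b, Atp1b3, Plac8, Nt5c3, Nqo2, Emc7 and Pigc, from -0.46 for B2m to -0.17 for Emc7. Each of these 20 had an edgeR adjusted p of 0.892. In the Cre libraries against GFP the 10 higher genes were also above 0, from 0.11 for Zgpat to 0.33 for Lama5. The 10 lower genes ran there from -0.24 for Rnaseh2b to 0.33 for Plac8. Hyal2 minus Cre values of the 10 higher genes were only 0.02 for Amotl2 to 0.13 for Pitpnm2. Those of the 10 lower genes ran from -0.67 for Plac8 to -0.01 for Rnaseh2b. Among them Plac8 (edgeR adjusted p = 0.00436) and B2m (0.0474) were called against Cre. Both comparisons with GFP share the GFP libraries.

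Lama5 was at 7.69, 9.19, 6.396 and 5.55 CPM in GFP and at 9.70, 11.5, 7.56 and 9.03 CPM in Hyal2. The Hyal2 culture was higher in each isolate while the groups overlapped (log2 fold change 0.40, SE 0.098). Amotl2 was at 321, 258, 285 and 280 CPM in GFP and at 347, 296, 336 and 330 CPM in Hyal2, again higher within each isolate with overlap between groups (0.20, SE 0.053). Traf3ip1, Pitpnm2 and Ogdhl did not overlap between the groups; Traf3ip1, an intraflagellar transport protein, was at 8.65 to 10.4 CPM in GFP and 10.8 to 11.5 CPM in Hyal2 (0.26, SE 0.07). Among the 10 lower genes B2m, Rnaseh2b, Nt5c3, Nqo2 and Emc7 did not overlap. Rnaseh2b, a subunit of the RNase that cuts RNA in RNA:DNA hybrids, was at 17.3 to 19.6 CPM in GFP and 14.1 to 16.8 CPM in Hyal2 (-0.25, SE 0.067).

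The enzymes that make hyaluronan did not change detectably with the excess of Hyal2. Has2, the synthase that dominates in many fibroblasts, was at 38.4, 62.1, 29.3 and 33.5 CPM in GFP and at 35.2, 65.6, 23.4 and 32.1 CPM in Hyal2. It was highest in isolate 2 with either virus, and the groups overlapped (log2 fold change -0.09, SE 0.18, 95% interval -0.46 to 0.28). Has1 was at 0.822, 2.79, 0.405 and 0.351 CPM in GFP and 1.13, 1.75, 0.408 and 0.317 CPM in Hyal2 (-0.21, SE 0.32, interval -0.88 to 0.47). Has3 was at 0.400, 0.335, 0.293 and 0.187 CPM in GFP and 0.320, 0.0970, 0.172 and 0.181 CPM in Hyal2, lower within every isolate at a level of few counts (-0.66, SE 0.31, edgeR adjusted p = 0.892). The synthases thus numbered 3 of 3 below 0 with a median of -0.21 (-0.002 without the GFP library of isolate 2, -0.44 without the Hyal2 library of isolate 1), and 0 of 3 were called.

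Genes that supply the sugar precursors stayed close to control. Ugdh, which makes UDP-glucuronic acid, was at 206, 256, 184 and 191 CPM in GFP and 199, 237, 165 and 172 CPM in Hyal2. It was lower in all 4 isolates with partial overlap between the groups (log2 fold change -0.12, SE 0.061, interval -0.24 to 0.01). Uap1 (-0.08, SE 0.078) and Ugp2 (-0.13, SE 0.12), which make UDP-sugars, and Gfpt1, Gfpt2, Gnpnat1, Pgm3, Nagk and Slc35d1, between -0.10 and 0.04, gave 7 of 9 genes below 0, a median of -0.05 and 0 calls. Ugp2 was at 128 CPM in the GFP library of isolate 4, against 92.4 to 97.8 CPM in the other GFP libraries.

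Among the genes that break hyaluronan down, the secreted and membrane depolymerases Cemip and Cemip2 lay on opposite sides of 0. Cemip, which binds and cuts hyaluronan in skin fibroblasts, was at 244, 222, 402 and 473 CPM in GFP and 286, 338, 530 and 490 CPM in Hyal2. Each Hyal2 culture was above its own GFP culture, but male isolates were above female ones by more than the viruses differed (0.31, SE 0.27, interval -0.28 to 0.89). Cemip2 was at 47.4 to 65.9 CPM in GFP and 46.4 to 58.3 CPM in Hyal2 (-0.10, SE 0.081). The lysosomal hyaluronidase Hyal1 was at 7.72 to 10.7 CPM and 8.70 to 12.4 CPM (0.11, SE 0.10), and Hyal3, an adjoining paralog, at 0.203 to 0.355 and 0.258 to 0.345 CPM (0.09, SE 0.28). The exoglycosidases Hexa (0.02, SE 0.07) and Gusb (-0.01, SE 0.055) did not differ from control beyond their error. In all, 4 of the 7 breakdown genes besides Hyal2 were above 0, with a median of 0.02.

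**Figure D3:**
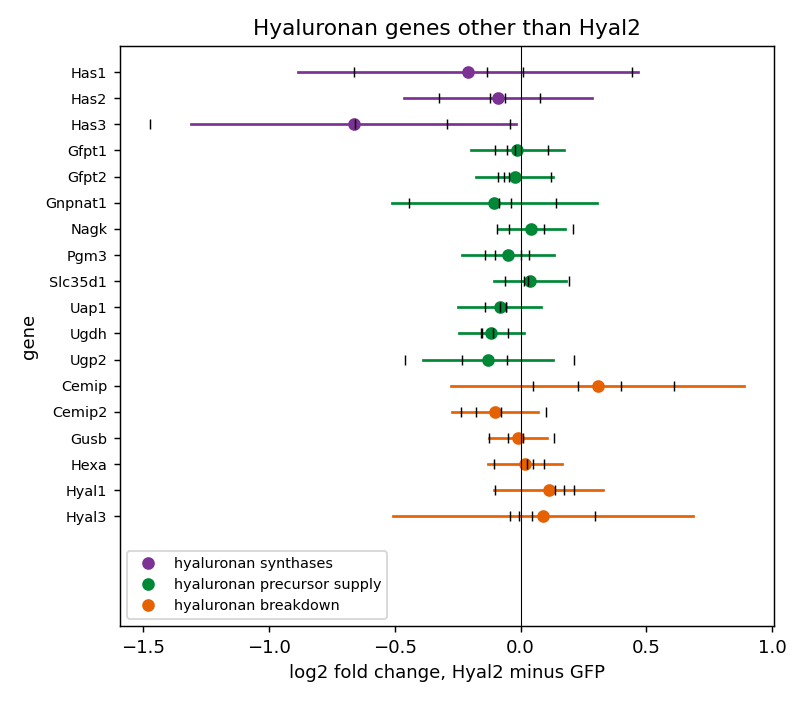
Log2 fold change of Hyal2 over GFP with its 95% interval for 18 of the 19 tested hyaluronan genes other than Hyal2, with the paired difference of each of the 4 isolates as a tick. Every interval shown but that of Has3 (-1.31 to -0.02) crosses 0.

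Hyaluronan receptors and binding proteins showed no common direction, with 8 of 19 genes above 0, a median of -0.03 and 0 calls. Habp4, named for hyaluronan binding, was at 30.3, 28.1, 30.6 and 28.9 CPM in GFP and 32.8, 29.99, 34.7 and 32.05 CPM in Hyal2, slightly higher in each isolate (log2 fold change 0.14, SE 0.056). Of the genes whose products have been linked to Hyal2, the receptor Cd44 was at 75.0 to 130 CPM in GFP and 74.4 to 130 CPM in Hyal2 (0.03, SE 0.08, interval -0.14 to 0.19). The receptor tyrosine kinase Mst1r (0.11, SE 0.082) was near control as well. Of 4 such genes 3 were above 0, with a median of 0.06.

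Genes next to Hyal2 on its chromosome stayed near control. Of 17 tested neighbours 14 were above 0, with a median of 0.09, and 0 were called. The neighbour median was 0.131 in Cre minus GFP and -0.027 in Hyal2 minus Cre. Cish, a cytokine signalling inhibitor, was at 4.21 to 4.62 CPM in GFP and 4.37 to 5.65 CPM in Hyal2 (0.23, SE 0.11), Sema3f, a semaphorin, had a value of 0.29 (SE 0.14), and the RNA-binding protein Rbm6 one of -0.12 (SE 0.056).

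Handling of a GPI-anchored, glycosylated surface protein was examined through the genes of anchor synthesis, the unfolded protein response and the lysosome. Anchor genes were split, with 15 of 33 above 0 and a median of -0.05. Pigc, an enzyme of the first step of the anchor, was at 29.4, 26.6, 30.1 and 32.1 CPM in GFP and 24.9, 26.1, 26.6 and 27.1 CPM in Hyal2; every isolate was lower while the ranges met at their edges (-0.17, SE 0.054). Pigg (-0.23, SE 0.088) and Pigx (-0.21, SE 0.089), later enzymes of the pathway, were likewise below 0 without passing. Stress genes had 11 of 28 above 0 with a median of -0.02; the chaperones Pdia3 (-0.14, SE 0.065) and Hsp90b1 (-0.15, SE 0.07) were on the low side. Lysosome genes had 22 of 39 above 0 with a median of 0.01, and Gla (-0.22, SE 0.088), Lipa (-0.11, SE 0.051) and Lamp2 (-0.26, SE 0.12) were its members of smallest p. No gene of the 3 lists was called.

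Interferon-stimulated genes, the antiviral programme of a cell, lay mostly below control, by amounts that differed between isolates more than in any other of the 34 lists. Of 64 genes, 60 lay below 0 and 4 above, with a median log2 fold change of -0.23 against -0.003 over all genes, and 0 were called. The median was -0.07 without isolate 3, -0.15 without the Hyal2 library of isolate 2 and -0.40 without that of isolate 4. The mean paired difference over the list was 0.11, -0.45, -0.84 and 0.03 in isolates 1 to 4 (mean -0.29 ± 0.44, SD, n = 4). In isolates 2 and 3 respectively 60 and 63 of the 64 genes were lower with the Hyal2 virus, whereas in isolates 1 and 4 the number was 16 and 28. Isolates 2 and 3 were also those with the lowest Hyal2 levels; with 4 isolates that coincidence was not tested.

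Irf7, a transcription factor of the response, stood out by these numbers and was chosen after they were seen. It was at 102, 144, 152 and 170 CPM in GFP and at 133, 58.3, 51.9 and 151 CPM in Hyal2. Isolates 2 and 3 were far lower with the Hyal2 virus while isolate 1 was higher, which left a log2 fold change of -0.52 with an SE of 0.33. Isg15, a ubiquitin-like modifier chosen the same way, was at 137, 166, 153 and 217 CPM in GFP and at 160, 92.7, 88.8 and 234 CPM in Hyal2 (-0.25, SE 0.24). Oasl2, a member of the oligoadenylate synthetase family, was at 144, 169, 200 and 269 CPM and at 158, 112, 102 and 274 CPM (-0.30, SE 0.21). The same isolates 2 and 3 were low for all 3 genes.

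The interferon genes of smallest p were Epsti1, Slfn2 and Ifi204. Slfn2, a schlafen protein, was at 22.2, 32.2, 21.2 and 22.6 CPM in GFP and 21.04, 21.04, 9.06 and 21.2 CPM in Hyal2, with a high GFP library in isolate 2 and a low Hyal2 library in isolate 3 (-0.46, SE 0.17). Ifi204, a DNA sensor, was at 48.0, 55.6, 65.0 and 102 CPM and 41.4, 43.6, 37.03 and 88.2 CPM, lower within each isolate (-0.37, SE 0.14). Epsti1 was below 1 CPM throughout (-0.85, SE 0.27). Ifi27 went the other way, at 72.7 to 101 CPM in GFP and 87.7 to 135 CPM in Hyal2 (0.34, SE 0.15), and was named after its values were seen. Each of these 4 had an edgeR adjusted p of 0.892. Genes of the NF-kB inflammatory response showed no such lean, with 13 of 24 above 0 and a median of 0.01.

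**Figure D4:**
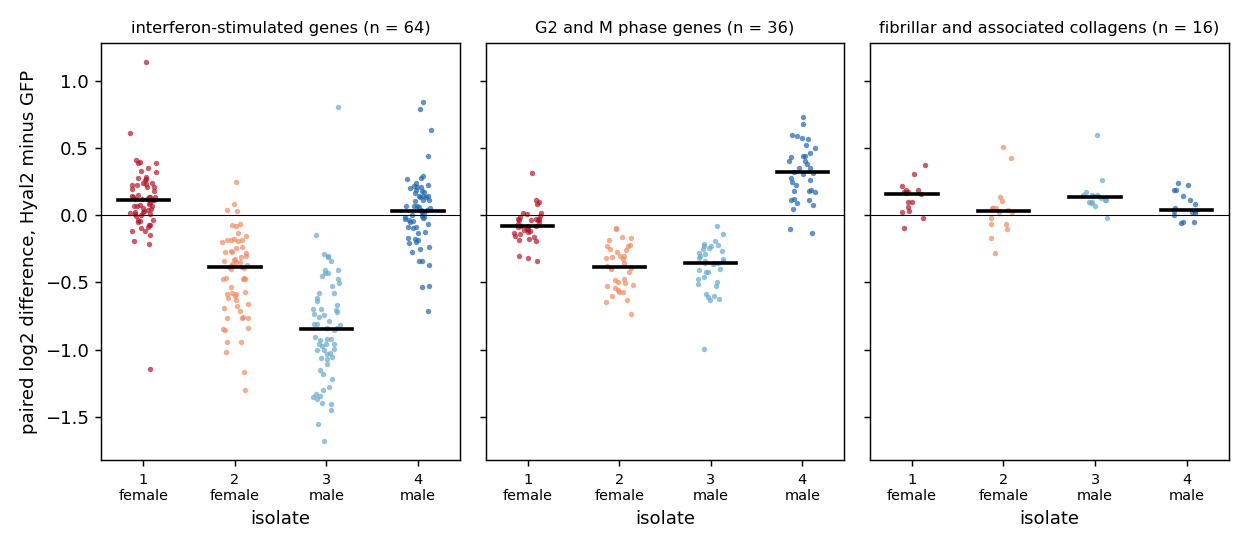
Paired log2 difference between the Hyal2 and the GFP culture of each isolate for the genes of 3 lists, 1 point per gene, with the median as a black bar. Interferon-stimulated genes fall below 0 in isolates 2 and 3 (medians -0.39 and -0.85) and sit near 0 in isolates 1 and 4 (0.11 and 0.03), G2 and M phase genes lie below 0 in isolates 1 to 3 and above 0 in isolate 4, and collagens stay close to 0 in all 4.

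B2m and Erap1, both among the 10 genes named as lower in every pair, belong to MHC class I antigen presentation, in which Erap1 trims peptides and B2m is the light chain of the presenting complex. B2m was at 810, 916, 990 and 1001 CPM in GFP and at 785, 719, 490 and 720 CPM in Hyal2. All Hyal2 libraries were below all GFP libraries, by little in isolate 1 and most in isolate 3 (log2 fold change -0.46, SE 0.12, edgeR adjusted p = 0.892). Erap1 was at 32.7, 31.9, 44.5 and 50.1 CPM in GFP and 29.3, 28.03, 30.4 and 37.3 CPM in Hyal2, lower in each isolate with overlap (-0.33, SE 0.08). The class I heavy chains H2-K1 (-0.26, SE 0.15) and H2-D1 (-0.28, SE 0.16) had wider errors, and reads of these near-identical genes can be shared with other H2 genes. Of 17 presentation genes listed after B2m and Erap1 were seen, and including both, 16 lay below 0 with a median of -0.10; 3 of the 17 also stand in the interferon list. By isolate the number below 0 was 5, 15, 15 and 12 of 17, with medians of 0.12, -0.37, -0.30 and -0.07. Ctss, a lysosomal protease of antigen presenting cells, was at 20.1, 17.1, 11.6 and 9.72 CPM in GFP and 19.3, 13.9, 8.72 and 6.29 CPM in Hyal2 (-0.34, SE 0.087).

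Leukocyte markers were low and leaned below control. Their 22 genes summed to 632, 435, 365 and 269 CPM in GFP and 571, 414, 361 and 239 CPM in Hyal2 for isolates 1 to 4. Cd3e was at 0 in 7 of the 8 libraries. Of 19 tested markers 18 lay below 0 in the fit, with a median of -0.14. Mean paired differences were -0.06, -0.17, -0.16 and -0.22 in isolates 1 to 4. By isolate the number below 0 was 10, 15, 16 and 15 of 19, with medians of -0.002, -0.19, -0.12 and -0.18. In the edgeR fit 4 had an unadjusted p under 0.05 and 0 were called. Cd68, a macrophage protein, was at 16.1, 10.7, 9.55 and 7.45 CPM in GFP and 12.5, 9.70, 7.33 and 6.58 CPM in Hyal2. Each isolate was lower with the Hyal2 virus, but isolates differed from each other by more than the viruses did (-0.27, SE 0.094). Ms4a7 (-0.41, SE 0.12) and Fcer1g (-0.28, SE 0.11), also of macrophages, and Mmp12, the macrophage elastase, at 1.83 to 4.44 CPM in GFP and 1.15 to 2.59 CPM in Hyal2 (-0.60, SE 0.14), had values below 0 too, and Ptprc, the pan-leukocyte marker, was at 2.37 to 4.29 and 2.13 to 4.28 CPM (-0.14, SE 0.14). In bulk RNA fewer cells of a type and less RNA per cell cannot be told apart, and the part of leukocytes in the values of Ctss, Mmp12, B2m or the interferon genes was not tested.

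Among markers of other cells, those of pericytes and of mesothelium had a mean paired difference above 0 in all 4 isolates. Pericyte markers summed to 142 to 199 CPM in GFP and 154 to 232 CPM in Hyal2. Notch3 alone was at 90.9 to 163 CPM in GFP and 102 to 193 CPM in Hyal2. Of 7 tested pericyte genes 6 were above 0, with a median of 0.21. Their mean paired differences were 0.08, 0.21, 0.10 and 0.22 in isolates 1 to 4. The pericyte median was 0.14 in Cre minus GFP and 0.03 in Hyal2 minus Cre. Cox4i2, a cytochrome oxidase subunit, was at 4.33, 3.06, 5.00 and 6.04 CPM in GFP and 5.71, 3.18, 8.06 and 6.61 CPM in Hyal2, higher in each isolate with overlap (0.33, SE 0.17). Myh6 and Nppa of cardiomyocytes, Lep of adipocytes and Muc16 of mesothelium were at 0 in all 8 libraries. Mesothelial markers had 6 of 8 above 0 and a median of 0.36, with mean paired differences of 0.47, 0.16, 0.16 and 0.88 in isolates 1 to 4. Their medians by isolate were 0.31, -0.02, -0.002 and 0.83. Upk3b was at 0.258 to 0.511 CPM in GFP and 0.588 to 0.800 CPM in Hyal2 (0.84, SE 0.28). With genes under a mean of 1 CPM left out the mesothelial median was 0.01. With all 8 tested genes it was 0.155 in Cre minus GFP and -0.05 in Hyal2 minus Cre. Endothelial markers had 6 of 12 above 0 (median -0.01), cardiomyocyte markers 2 of 3 (0.30), Schwann cell markers 2 of 5 (-0.01) and adipocyte markers 1 of 2 (0.18). None of the markers was called.

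In the fit, collagen, basement membrane and matricellular genes lay mostly slightly above control, without a call. Their medians in Cre minus GFP were 0.06, 0.07 and 0.02. By isolate 1 to 4, 2, 6, 1 and 4 of the 16 collagen genes and 6, 13, 9 and 5 of the 22 basement membrane genes lay below 0. Fibrillar and associated collagens lay above 0 in 15 of 16 genes (9 without the Hyal2 library of isolate 3), yet the median was 0.09 and the mean paired difference 0.10 ± 0.05 (SD, n = 4). Col1a1, the main chain of type I collagen, was at 10530, 8463, 12790 and 12170 CPM in GFP and 11890, 8619, 14420 and 13400 CPM in Hyal2. Each Hyal2 culture was above its own GFP culture, by less than the range between isolates (0.13, SE 0.075, interval -0.03 to 0.29). Col8a2 (0.36, SE 0.16) and Col16a1 (0.12, SE 0.072) were the other collagens of smallest p. Basement membrane genes had 16 of 22 above 0 (median 0.08); besides Lama5 these included the perlecan gene Hspg2, at 1711, 1456, 2118 and 1743 CPM in GFP and 1889, 1605, 2597 and 2139 CPM in Hyal2 (0.22, SE 0.087), and Col4a5 (0.15, SE 0.07).

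Of the matricellular proteins 15 of 20 were above 0 in the fit (median 0.05), while 10, 6, 9 and 10 lay below 0 in isolates 1 to 4. Fn1, which encodes fibronectin, was at 13360, 10780, 11830 and 11550 CPM in GFP and 13130, 13650, 13670 and 13510 CPM in Hyal2, higher in isolates 2 to 4 and not in isolate 1 (0.19, SE 0.078). Comp (0.28, SE 0.11) and Fbln2 (0.10, SE 0.046), other glycoproteins of the matrix, had values of the same sign. Small leucine-rich proteoglycans had 6 of 13 above 0 (median -0.13, or 0.03 without the GFP library of isolate 4) and proteases with their inhibitors 16 of 31 (median 0.004).

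No gene listed for the contractile myofibroblast state, which TGFB induces in cardiac fibroblasts, was called. Contractile genes lay above 0 in 17 of 22 cases with a median of 0.06 and a mean paired difference of 0.07 ± 0.04 (SD, n = 4). The mean paired difference was 0.09, 0.01, 0.07 and 0.10 in isolates 1 to 4. The contractile median was 0.06 in Cre minus GFP as well, and -0.001 in Hyal2 minus Cre. Of the 22 genes 7 were higher in all 4 isolates, as were 7.89% of all genes tested. A shift of the list as a whole was not tested. Actn1, an actin crosslinker, was at 833, 876, 635 and 621 CPM in GFP and 886, 912, 649 and 756 CPM in Hyal2, slightly higher in each isolate with overlap (0.11, SE 0.079); Smtn (0.10, SE 0.061) and Zyx (0.10, SE 0.067), both tied to actin filaments, had values of the same size. TGF-beta targets had 14 of 25 above 0 (median 0.04), with the inhibitor Smad7 at 72.5 to 79.6 CPM in GFP and 78.9 to 84.4 CPM in Hyal2 (0.10, SE 0.054) and the latent TGF-beta binding proteins Ltbp3 (0.10, SE 0.05) and Ltbp2 (0.14, SE 0.093). YAP and TEAD targets had 18 of 21 above 0 (median 0.04), among them Amotl2 and the scaffold Wwc1 (0.29, SE 0.12). Their median was 0.067 in Cre minus GFP and -0.012 in Hyal2 minus Cre. Genes of resting fibroblasts had 12 of 28 above 0 (median -0.01), with Pdgfra (-0.09, SE 0.061), Mfap5 (-0.11, SE 0.086) and Scara5 (-0.27, SE 0.11) on the low side, and the fibroblast markers had 8 of 13 (median 0.03). No gene of these 4 groups or of the matrix lists was called.

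The genes that TGFB itself moved were also examined, as chosen in libraries outside this comparison. In the Cre_TGFB libraries against the Cre libraries, 981 genes were called at least 2-fold higher (6.28% of those tested) and 2035 at least 2-fold lower (13%). With the Hyal2 virus, 49.2% of the raised genes lay above 0, with a median of -0.006, and 50.9% of the lowered genes, with a median of 0.004; 0 of either were called. A matching set for loss of Hyal2 could not be drawn, since 0 genes other than Hyal2 were called between Cre_TGFB and GFP_TGFB.

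Proliferation genes also differed by isolate, and isolates 2 and 3 were again low. G2 and M phase genes lay below 0 in 34 of 36 cases (20 without isolate 2) with a median of -0.12. Their median was -0.22 in Cre minus GFP and 0.09 in Hyal2 minus Cre, so the lean below GFP was not particular to the Hyal2 virus. Their mean paired difference between the Hyal2 and GFP cultures was -0.08, -0.39, -0.39 and 0.32 in isolates 1 to 4. Top2a, the topoisomerase of dividing cells, was at 43.9, 65.3, 36.9 and 35.5 CPM in GFP and 40.02, 48.7, 27.4 and 38.5 CPM in Hyal2, lower in isolates 1 to 3 and higher in isolate 4 (-0.21, SE 0.11). Bub1b (-0.17, SE 0.082), a spindle checkpoint kinase, and Ndc80 (-0.24, SE 0.13), of the kinetochore, did not pass either. S phase genes had 12 of 36 above 0 (median -0.04; 0.001, -0.25, -0.14 and 0.29 in isolates 1 to 4). Genes of the p53 response had 16 of 25 above 0 (median 0.04).

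Mitochondrially encoded mRNAs lay below 0 in 7 of 7 tested genes with a median of -0.20 (-0.02 without the GFP library of isolate 4, -0.42 without isolate 2). Their median was -0.416 in Cre minus GFP and 0.178 in Hyal2 minus Cre, so the lean below GFP was not particular to the Hyal2 virus. Their share of all counts was 0.604% to 1.17% in GFP, 0.543% to 0.784% in Hyal2 and 0.52% to 0.601% in Cre. mt-Co1 was at 2288, 2152, 2532 and 4340 CPM in GFP and 2005, 2646, 1979 and 2543 CPM in Hyal2; the GFP library of isolate 4 was high and isolate 2 went the other way (-0.26, SE 0.20). mt-Nd6, a subunit of complex I, was at 15.4 to 25.3 CPM in GFP and 12.7 to 14.7 CPM in Hyal2 with no overlap (-0.57, SE 0.29). Glycolysis genes had 13 of 20 above 0 (median 0.005) and cholesterol synthesis genes 17 of 24 (median 0.07), including the mevalonate kinase gene Mvk (0.16, SE 0.11). None of these was called.

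**Figure D5:**
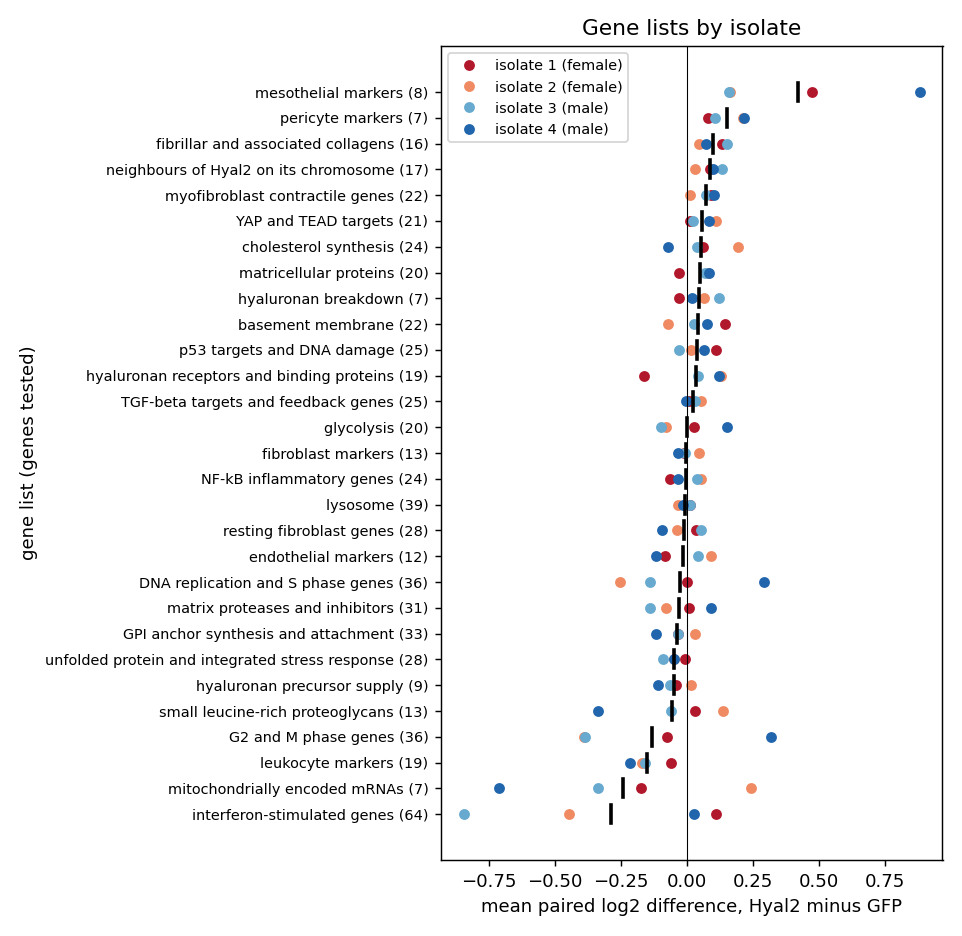
Mean paired log2 difference between the Hyal2 and the GFP culture over the genes of each list with at least 7 genes tested, 1 point per isolate, with the mean of the 4 isolates as a black bar. The interferon-stimulated genes span 0.11 to -0.84 and the G2 and M phase genes 0.32 to -0.39, while the collagens stay between 0.04 and 0.15.

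Male and female isolates did not differ in their response to the virus at the threshold. The male minus female difference of the Hyal2 effect was called for 0 of 15624 genes (0%), with 576 at an unadjusted p under 0.05 and a smallest edgeR adjusted p of 0.915. With no filter on low counts edgeR called 65, all of them genes also tested with the filter, so this count depends on the filter. The 4 genes of smallest p were Mrpl1, a mitochondrial ribosomal protein (difference -0.80, SE 0.20), Nle1 (0.58, SE 0.16), Rnf157 (0.73, SE 0.21) and Oxsm, of mitochondrial fatty acid synthesis (-0.54, SE 0.15). Rnf157 was at 5.51, 5.64, 4.75 and 4.004 CPM in GFP and 4.50, 5.09, 6.53 and 5.97 CPM in Hyal2, lower with the Hyal2 virus in the female and higher in the male isolates. Each group and sex held 2 libraries.

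Against the Cre virus, which deletes Hyal2, the Hyal2 libraries differed at more genes. EdgeR called 152 genes lower (0.973%) and 3 higher (0.0192%), Hyal2 among the latter (log2 fold change 6.46). Of the 64 interferon genes 57 were lower and Ifi27 was higher, with a median of -1.05. The number lower was 25 in the fit of the 12 libraries without TGFB, 26 with no filter, 4 without isolate 2, 9 without isolate 3 and 10 without the Hyal2 library of isolate 2. The mean log2 CPM of the list was 4.94, 5.22, 5.28 and 5.72 in GFP, 5.05, 4.77, 4.43 and 5.75 in Hyal2 and 5.64, 6.03, 6.34 and 6.60 in Cre for isolates 1 to 4; the Cre culture was highest in every isolate. Both comparisons share the Hyal2 libraries. B2m fell by 0.53 against Cre (edgeR adjusted p = 0.0474), and Slfn2, Ifi204, Isg15 and Oasl2 were among the genes called. Without the replicate block edgeR called 2 genes, 1 of them an interferon gene, and without isolate 2, 3 or 4 it called 14, 21 and 90. Without the Hyal2 library of isolate 2 or 3 alone it called 35 and 87, so the number of calls rests on the pairing and on these libraries.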

How the data were processed

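Total RNA of cultured cardiac fibroblasts was sequenced in 20 libraries (5 groups of 4), and the authors deposited raw counts per gene. Per the submitters' processing notes FastQC 0.10.1, HTSeq 0.10.0 and the mouse build GRCm39 were used; the sources used here do not give the aligner, annotation release or strand setting. Symbols came from a GENCODE name table that matched 52081 of 55414 gene identifiers.

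Genes with too few counts were removed with edgeR's filterByExpr (minimum count 10), which left 15624. Counts of all 20 libraries were fitted with edgeR 4.0.16 (R 4.3.3; TMM factors, robust quasi-likelihood test), with a mean per group and the replicate number as a block, and p-values were adjusted by Benjamini-Hochberg; a gene was called at an adjusted p under 0.05. SEs were obtained from the estimate and its F statistic. Paired differences are of log2 CPM with a prior count of 2. Same-numbered libraries share a code in their names, and their deviations from the group means correlated at 0.503 to 0.586 (highest correlation with another number 0.442). No statement says that isolates were separate animals, so p-values speak only for these samples. They and the SEs rest on the spread left over all 20 libraries after the block. They do not measure the spread of the Hyal2 effect between the 4 pairs, which the paired differences show. The fit was tested on simulated data.

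Genes were named by a rule: Hyal2, the 10 genes in each direction with the smallest p among those of at least 5 CPM with 1 sign in all 4 pairs, the 3 of smallest p in each of 34 lists, all tested genes of hyaluronan synthesis, supply and breakdown, the 4 of smallest p for the sex difference, and defining markers; a few of them are given only in counts and medians, and some genes the rule names are not reported here. Irf7, Isg15, Oasl2, Ifi27, H2-K1, H2-D1, Stmn4 and Nefm lie outside it. The comparison, lists and rule were chosen with earlier results of these data known. Alternatives were DESeq2 1.42.0, limma-voom (limma 3.58.1), other scaling factors, other filters, fewer libraries, no block and leaving out replicates.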

Additional observations from a re-analysis of the deposited data

Results flagged for a closer look

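Of 186 groups of 4 libraries checked with Dixon's 95% criterion for a single library far from the other 3, 5 stood out, where chance would flag about 1 in 20. In the GFP group Pitpnm2 was low in isolate 2 at 15.4 CPM, against 16.3 to 16.4 CPM in the others. Ugp2 was high in GFP isolate 4 at 128 CPM (others 92.4 to 97.8). Slfn2 was high in GFP isolate 2 at 32.2 CPM (others 21.2 to 22.6) and low in Hyal2 isolate 3 at 9.06 CPM (others 21.04 to 21.2). Ifi204 was high in Hyal2 isolate 4 at 88.2 CPM (others 37.03 to 43.6).

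Small leucine-rich proteoglycans were the 1 list of 34 whose mean paired difference had opposite signs in the sexes, at 0.03 and 0.14 in the female and -0.06 and -0.34 in the male isolates. The male minus female difference was -0.28; it was not tested.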

How the results depend on the processing

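The log2 fold change of Hyal2 lay between 4.07 and 4.77 over 21 alternatives, and it missed the threshold in the fit of the 12 libraries without TGFB (4.41, adjusted p = 0.202) and of the 8 GFP and Hyal2 libraries (4.34, adjusted p = 0.704); 0 genes were called in either (1410 and 997 at an unadjusted p under 0.05). DESeq2, limma-voom and edgeR with no filter each called 2 genes; leaving out replicates left 1. Without the replicate block 1 gene was called, Hyal2, and 331 had an unadjusted p under 0.05. Hyal2 minus Cre, with 155 calls, gave 91 with no filter, 2 with no replicate block and 14 to 151 when a replicate was left out. The sex difference gave 65 calls with no filter. The cause was not tested.

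Of 34 list medians, 12 moved by more than the spread of the paired differences in some alternative. Leaving out replicates gave -0.127 to 0.007 for precursor supply, 0.069 to 0.141 for neighbours of Hyal2, -0.084 to 0.019 for GPI anchor genes, -0.061 to 0.008 for stress genes, -0.015 to 0.043 for lysosome genes, 0.033 to 0.147 for collagens, -0.029 to 0.058 for TGF-beta targets, -0.067 to 0.063 for resting fibroblast genes, 0.001 to 0.065 for fibroblast markers, -0.204 to 0.512 for cardiomyocyte and -0.086 to 0.213 for adipocyte markers. With a mean of at least 1 CPM required, the median was 0.006 for mesothelial and -0.042 for adipocyte markers. Within that spread the median ranged from -0.435 to -0.002 for synthases, -0.424 to -0.02 for mitochondrial mRNAs and -0.271 to -0.047 for G2 and M phase genes. It took either sign for small leucine-rich proteoglycans (-0.215 to 0.027), S phase genes (-0.133 to 0.052) and Schwann cell (-0.097 to 0.101) and endothelial markers (-0.081 to 0.032), and within 0.1 of 0 for the breakdown, receptor, NF-kB, p53, protease and glycolysis lists. The interferon median stayed below 0 throughout (-0.40 to -0.07, with 47 to 63 genes below 0), as did that of leukocyte markers (-0.20 to -0.08). Collagens had 9 to 16 genes above 0 and G2 and M phase genes 20 to 36 below 0.

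Genes near 0 changed sign when a replicate was left out: Has1 ranged from -0.44 to 0.26, Has2 from -0.269 to 0.048, Gfpt1 from -0.107 to 0.047, Gfpt2 from -0.076 to 0.037, Gnpnat1 from -0.248 to 0.015, Pgm3 from -0.127 to 0.008, Nagk from -0.006 to 0.089, Slc35d1 from -0.004 to 0.086, Hyal3 from -0.018 to 0.2, Hexa from -0.039 to 0.078, Gusb from -0.06 to 0.041 and Cd44 from -0.024 to 0.084. Upper-quartile factors gave 0.001 for Gfpt1 and 0.006 for Gusb. Depth limits genes under 1 CPM most.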

Other observations

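Counted isolate by isolate and leaving out Hyal2 itself, few genes of at least 5 CPM differed 2-fold between the Hyal2 and the GFP culture. Of 10275 such genes besides Hyal2, isolate 1 had 0 at least 2-fold higher and 0 lower, isolate 2 had 1 and 4, isolate 3 had 2 and 30, and isolate 4 had 4 and 7. Of the lower genes 2 in isolate 2, 20 in isolate 3 and 0 in isolate 4 were in the interferon list.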
